A study of Mus musculus with 18 samples.

Results

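The early activation receptor *Cd69* and the C-type lectin genes *Clec2d*, *Clec4d*, *Clec4e*, *Clec4n*, *Clec5a*, *Clec7a* and *Clec12a* were followed in bone marrow-derived macrophages (BMDMs). They were taken from the count table by gene name, 8 of 20615 genes. Of the 15789 genes that passed a filter on low counts, 8 were these, so none was lost. The choice leaned on these data. *Cd69* had been picked out by the study among the genes most raised in AC treated SjSS BMDMs, and *Clec4e*, *Clec4n* and *Clec5a* stood in its lists of genes raised there. Comparisons that contain the AC SjSS samples are therefore described without a p value, and tests were kept for the 7 of 11 comparisons that do not contain them. In the other 4, members are counted by the size of the fold change alone. The study's lists set AC SjSS against control SjSS samples, so the choice used the control SjSS samples too. These enter the tests of the CpG response in SjSS, of the untreated strains and of the CpG interaction, whose p values carry this limit.

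Bone marrow of mice aged 7 to 12 weeks was cultured with L929 supernatant, a source of M-CSF, which yields macrophages. The cells came from C57BL/6 (B6) mice and from C57BL/6.NOD-*Aec1Aec2* (SjSS) mice, a model of Sjögren's syndrome that carries intervals of the non-obese diabetic mouse on the B6 background. BMDMs of each strain were untreated (control), or received apoptotic cells (AC) at 5 per BMDM for 2 h, or 1 µM CpG, an oligonucleotide agonist of Toll-like receptors, for 6 h. The ACs were thymocytes killed with dexamethasone, and by the labels they were washed off 3 h before RNA was collected. The sources used here do not say which strain gave the thymocytes, so a strain difference with ACs cannot be told apart from a difference in the ACs. Each of the 6 groups held 3 samples. The methods name 3 mice for each strain without saying whether samples of different treatments share a mouse, so p values measure the spread between these samples. Totals ran from 30688336 to 57139662 counts with a median of 47912525, and the smallest library was control SjSS replicate 2. The mean correlation of a sample with the others of its group was 0.987 to 0.992, so no library stood apart from its group. The factors that scaled the library totals (TMM) were 0.833 to 0.838 in AC SjSS samples and 0.942 to 1.13 in all others. The part of this difference in the results was not tested.

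The cells carried the markers of their label. All 10 macrophage markers passed the filter and none was at 0 over a group, and their summed level was 15930 to 24660 CPM (counts per unit of library total, with totals scaled by TMM). Of 24 thymocyte and T lineage markers, 15 were below the filter, among them *Cd3e*, *Trac* and *Rag1*. Those 15 summed to 0.272 to 0.497 CPM in control B6 and 0.973 to 1.74 CPM in AC B6 samples, and to 0.178 to 0.774 CPM in control SjSS and 0.673 to 1.03 CPM in AC SjSS samples. These sums were higher with ACs in B6 and overlapped in SjSS. The whole list of 24, led by *Cd28* and *Cd4*, summed to 72.4 to 88.7 CPM in control B6 and 28.0 to 35.1 CPM in AC B6, and to 67.5 to 84.1 and 45.2 to 50.1 CPM in SjSS. Dendritic cell markers (6 of 7 in the table) summed to 5.68 to 13.2 CPM and NK and B cell markers (8 of 9) to 9.45 to 26.8 CPM over all samples. Granulocyte markers (5 of 8, with no *Ly6g*) summed to 113 to 129 CPM in control B6 and 209 to 230.5 CPM in CpG B6, and to 89.0 to 102.5 and 135 to 160 CPM in SjSS. With ACs they summed to 83.4 to 99.6 CPM in B6, below control, and to 112 to 118 CPM in SjSS, above control. *Csf3r* made up most of these sums, with means of 118 CPM in control B6 and 94.3 CPM in control SjSS. The part of these other cells in the results was not tested. Levels in bulk RNA cannot tell fewer expressing cells from less RNA in each cell.

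C-type lectins are membrane proteins that share a fold first known from carbohydrate binding. Some, such as Dectin-1 (*Clec7a*), signal through a motif of their own, whereas Mincle (*Clec4e*), Dectin-2 (*Clec4n*) and MDL-1 (*Clec5a*) rely on the adaptors FcRγ or DAP12, and these routes meet at the kinase Syk and the scaffold Card9. Macrophages use them to sense fungi, mycobacteria and products of dying cells. CD69 is a lectin-like receptor that appears early after activation of leukocytes and holds back the egress receptor S1P1.

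All 8 genes lie on chromosome 6 (mm10 positions as deposited), and none on chromosomes 1 or 3, which carry the NOD intervals of the SjSS strain. *Clec5a* stood apart at 40574894 to 40585821 on the minus strand. The others lay between 123229843 and 129472779, in a group of *Clec4n*, *Clec4d* and *Clec4e* and a group of *Clec2d*, *Cd69*, *Clec12a* and *Clec7a*. *Clec4n* and *Clec4d* were 15089 bases apart and *Clec4d* and *Clec4e* 6523 bases, with 0 genes of the table between. The table gives *Clec7a* the biotype polymorphic pseudogene and the other members protein coding.

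Per kilobase of exon, mean levels in control B6 ran from 434 CPM for *Clec4d* and 151.5 for *Clec4n* through 146 for *Clec7a*, 38.4 for *Clec2d* and 37.5 for *Clec12a* to 4.78 for *Clec5a*, 3.17 for *Clec4e* and 0.303 for *Cd69*. In AC SjSS samples *Clec4d* still led at 689 CPM per kilobase, followed by *Clec2d* at 207, *Clec4e* at 170 and *Cd69* at 148.5. *Cd69* and *Clec4e*, the lowest in control B6, thus stood above *Clec4n* (120.5), *Clec7a* (105) and *Clec12a* (64.7) there, and *Clec5a* was lowest at 16.7.

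*Cd69* had the lowest control level per kilobase and the widest range of the 8. In CPM it was 2.02, 1.86 and 2.04 in the control B6 samples, 25.2, 28.3 and 31.8 with ACs, and 95.8, 87.1 and 82.2 with CpG. In SjSS it was 2.08, 1.72 and 1.76 in control samples, 958, 987 and 954 with ACs, and 70.2, 59.9 and 62.6 with CpG. The strains overlapped only without treatment, and every treated group stood clear of every other group. Control samples held 58 to 126 *Cd69* counts, so the base of each fold was counted but low.

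In B6 BMDMs *Cd69* rose with ACs by a log2 fold change of 3.84 (SE 0.10, adjusted p = 7.64e-15, edgeR quasi-likelihood test, Benjamini-Hochberg over all tested genes). CpG raised it by 5.48 in B6 (SE 0.10, adjusted p = 1.43e-17) and by 5.10 in SjSS (SE 0.11, adjusted p = 3.89e-17). The CpG responses of the strains differed by -0.38 (SE 0.16, adjusted p = 0.172), short of the threshold. The AC change in SjSS had rank 9 of 15789 genes by size of increase. *Cd69* was chosen with that change known, so nothing is read from the rank. Only in SjSS did AC samples hold more *Cd69* than CpG samples. The difference of AC from CpG was 3.91 in SjSS and -1.64 in B6 (SE 0.08, adjusted p = 8.83e-12 for B6).

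*Clec2d*, a lectin-like ligand of the NK receptor NKR-P1B and a neighbour of *Cd69*, kept a similar order of groups over a narrower range. It was 43.2, 52.6 and 43.8 CPM in control B6, 92.8, 98.1 and 100.5 with ACs and 97.5, 120.3 and 116 with CpG. In SjSS it was 54.4, 46.4 and 52.5 CPM in control samples, 266, 262 and 227 with ACs and 112, 101 and 115 with CpG. Only the AC SjSS samples stood above both CpG groups.

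The tested changes of *Clec2d* were below the size asked of a called gene. It rose by 1.06 with ACs in B6 (SE 0.09, adjusted p = 3.61e-08), by 1.26 with CpG in B6 (SE 0.09, adjusted p = 7.43e-10) and by 1.09 with CpG in SjSS (SE 0.09, adjusted p = 7.11e-09), on the log2 scale. From a control mean of 51.1 CPM, AC SjSS samples reached 252 CPM (log2 fold change 2.30). *Clec2d* has close relatives (*Clec2e* to *Clec2i*), and reads shared with them were split by estimation.

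*Clec4e* encodes Mincle, a receptor for mycobacterial cord factor and for a protein set free by dying cells. In CPM it was 16.1, 15.5 and 15.7 in control B6, 276, 323 and 346 with ACs and 1221, 1074 and 1003 with CpG. In SjSS it was 5.64, 6.54 and 4.17 in control samples, 802, 856 and 868 with ACs and 600, 593 and 633 with CpG. No 2 of the 6 groups overlapped.

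With ACs *Clec4e* rose by 4.32 in B6 on the log2 scale (SE 0.12, adjusted p = 7.64e-15), the member with the largest such change there and rank 24 of 15789. With CpG it rose by 6.13 in B6 (SE 0.12, adjusted p = 2.58e-17) and by 6.82 in SjSS (SE 0.13, adjusted p = 1.58e-17). The mean in AC SjSS samples was 842 CPM against 5.45, a change of 7.29. *Clec4e* was the one member called between untreated strains, 1.55 lower in SjSS (SE 0.12, adjusted p = 4.97e-08).

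The response of *Clec4e* to CpG was larger in SjSS than in B6 by 0.70 (SE 0.16, adjusted p = 0.0115 for the interaction). Its level after CpG was nevertheless lower in SjSS, by 0.85 (SE 0.10, adjusted p = 6.22e-06). Both comparisons share the SjSS CpG samples, and the interaction also rests on the lower control level.

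*Clec4d* (MCL), the nearest neighbour of *Clec4e* and its partner in a receptor complex, was abundant in every sample and moved little. Control samples ranged from 607 to 772 CPM in B6 and from 590 to 702 CPM in SjSS. Treated samples ranged from 994 to 1033 CPM with ACs and from 1048 to 1232 CPM with CpG in B6, and from 1053 to 1176 and 1038 to 1208 CPM in SjSS. All treated samples lay above all controls, and the strains overlapped in the control and CpG groups.

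*Clec4d* rose by 0.55 with ACs in B6 (SE 0.09, adjusted p = 5.29e-05), by 0.71 with CpG in B6 (adjusted p = 8.62e-07) and by 0.78 with CpG in SjSS (adjusted p = 3.6e-07). Per kilobase of exon, *Clec4e* stood at a ratio of 0.00645 to 0.00854 to *Clec4d* in control B6 and of 0.281 to 0.375 after CpG. In SjSS that ratio was 0.00228 to 0.00300 in control samples, 0.235 to 0.265 with ACs and 0.16 to 0.196 with CpG. In AC B6 samples it was 0.0896 to 0.109. No 2 groups overlapped in this ratio.

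*Clec4n*, which encodes the fungal mannan receptor Dectin-2, behaved unlike its neighbours. It was 240.4, 198 and 207 CPM in control B6, 111, 93.5 and 91.5 with ACs and 284, 264 and 245 with CpG. In SjSS it was 116, 155 and 110.5 CPM in control samples, 157, 194 and 162 with ACs and 155, 197 and 144 with CpG. ACs went with a lower level in all 3 B6 samples, and AC SjSS samples lay above all control SjSS samples.

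In B6 *Clec4n* fell by 1.12 with ACs on the log2 scale (SE 0.13, adjusted p = 1.6e-06). In AC SjSS samples it was 0.43 above control, so the strains pointed in opposite directions. The summed granulocyte markers did so too, but that sum was mostly *Csf3r*, and mean *S100a8* and *Cebpe* were lower with ACs in both strains. The part of these markers was not tested. With CpG in B6 the change was 0.30 (SE 0.13, adjusted p = 0.0565), and 0.000115 with the replicate number as a block. With CpG in SjSS it rose by 0.38 (SE 0.13, adjusted p = 0.0182) although the samples overlapped their controls, a result lost without control SjSS replicate 1 (adjusted p = 0.0798) or 3 (0.101) or CpG SjSS replicate 2 (0.141). Untreated SjSS BMDMs held less *Clec4n* than B6, by 0.76 (SE 0.13, adjusted p = 0.000426).

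*Clec5a* encodes MDL-1, a DAP12-coupled receptor of myeloid cells known for binding dengue virus. It was 22.5, 16.9 and 15.7 CPM in control B6, 23.3, 22.7 and 23.6 with ACs and 155, 109 and 101 with CpG. In SjSS it was 10.2, 6.63 and 9.32 CPM in control samples, 68.7, 62.9 and 60.7 with ACs and 60.6, 58.6 and 57.9 with CpG. AC B6 samples sat just above their controls, whereas AC SjSS samples lay just above CpG SjSS samples.

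With CpG *Clec5a* rose by 2.72 in B6 (SE 0.15, adjusted p = 1.75e-11) and by 2.74 in SjSS (SE 0.16, adjusted p = 4.58e-11). With ACs in B6 the change was 0.33 (SE 0.15, adjusted p = 0.0924), and without control B6 replicate 1 it was 0.51 (adjusted p = 0.0161). AC SjSS samples had a mean of 64.1 CPM against 8.70 in control (log2 fold change 2.86). The level in SjSS was lower than in B6 by 1.06 without treatment (adjusted p = 0.000134) and by 1.04 with CpG (adjusted p = 4.05e-05).

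*Clec7a*, the gene of the beta-glucan receptor Dectin-1, was highest in untreated B6 BMDMs. Control B6 samples were at 356, 418 and 380 CPM, above all 15 other samples, which ranged from 174 to 296 CPM. In B6 it fell by 0.65 with ACs (SE 0.09, adjusted p = 1.27e-05) and by 0.68 with CpG (SE 0.09, adjusted p = 2.5e-06). In SjSS it fell by 0.33 with CpG (SE 0.09, adjusted p = 0.00458) although those samples overlapped their controls, and in AC SjSS samples it was 0.20 above control with overlapping samples. Untreated SjSS BMDMs held less by 0.67 (SE 0.09, adjusted p = 3.59e-05), and CpG treated ones by 0.32 (adjusted p = 0.0155). The CpG strain difference no longer passed without CpG B6 replicate 3 (adjusted p = 0.0502) or CpG SjSS replicate 3 (0.0767).

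*Clec12a* encodes MICL, an inhibitory receptor that binds uric acid crystals, and its order of groups was the same in both strains. It was 198 to 219 CPM in control B6, 299 to 341 with ACs and 419 to 460 with CpG. In SjSS it was 175 to 196 CPM in control samples, 349 to 367 with ACs and 402 to 428 with CpG. It rose by 0.64 with ACs in B6 (SE 0.06, adjusted p = 1.48e-07), by 1.08 with CpG in B6 (adjusted p = 2.1e-11) and by 1.15 with CpG in SjSS (adjusted p = 1.31e-11). The strain difference was -0.13 in control samples (SE 0.06, adjusted p = 0.139) and -0.07 with CpG (SE 0.06, adjusted p = 0.505).

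**Figure D1:**
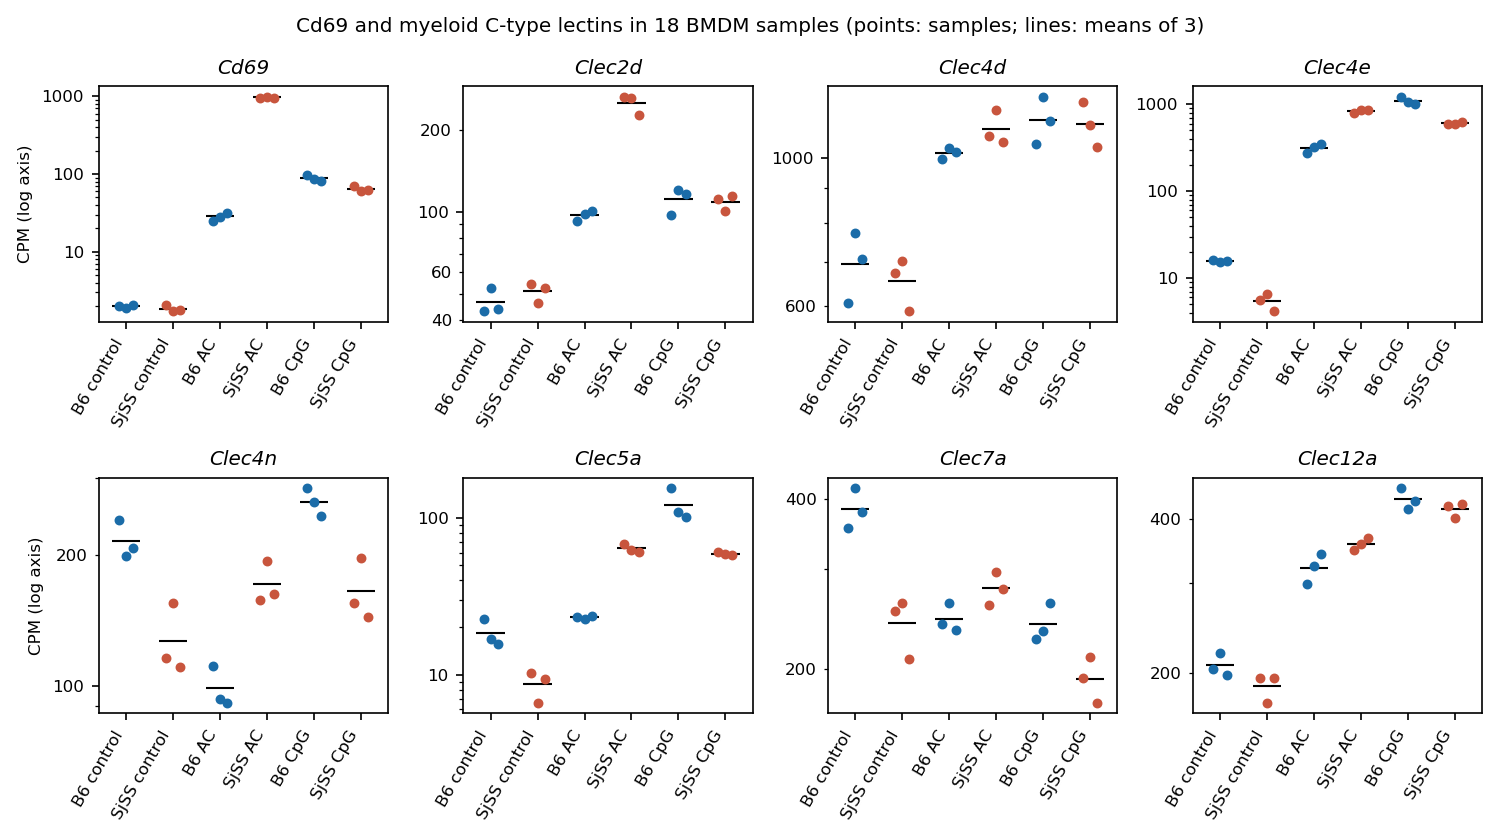
Level of each gene in CPM (log axis) in the 18 samples, with points for samples (blue B6, red SjSS) and lines for the means of 3. *Cd69* and *Clec2d* are highest in AC SjSS samples (means of 966 and 252 CPM), *Clec4e* and *Clec5a* in CpG B6 samples (1099 and 122 CPM), and *Clec7a* in control B6 samples (384 CPM).

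Genes counted as called where the log2 fold change was beyond 1.3 in either direction with an adjusted p under 0.05. With ACs in B6, 2 of 8 members were called higher (*Clec4e* and *Cd69*) beside 2.43% of all tested genes, and 0 were called lower beside 2.04%. Without the fold threshold 5 were higher (20.0% of genes) and 2 lower (18.3%), and at an unadjusted p under 0.05 all 8 passed, as did 45.4% of genes. With CpG, *Clec4e*, *Cd69* and *Clec5a* were called higher in both strains, 3 of 8 beside 5.86% of genes in B6 and 4.81% in SjSS. Without the fold threshold 6 were higher and 1 lower with CpG in B6 (28.1% and 29.8% of genes), and 7 and 1 in SjSS (27.8% and 26.4%). The median log2 fold change of the 8 with CpG was 1.17 in B6 and 1.12 in SjSS, against -0.04 and -0.01 over all tested genes. In AC SjSS samples 4 of 8 had a log2 fold change over 1.3, beside 7.51% of genes, a count that the choice of members shaped.

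**Figure D2:**
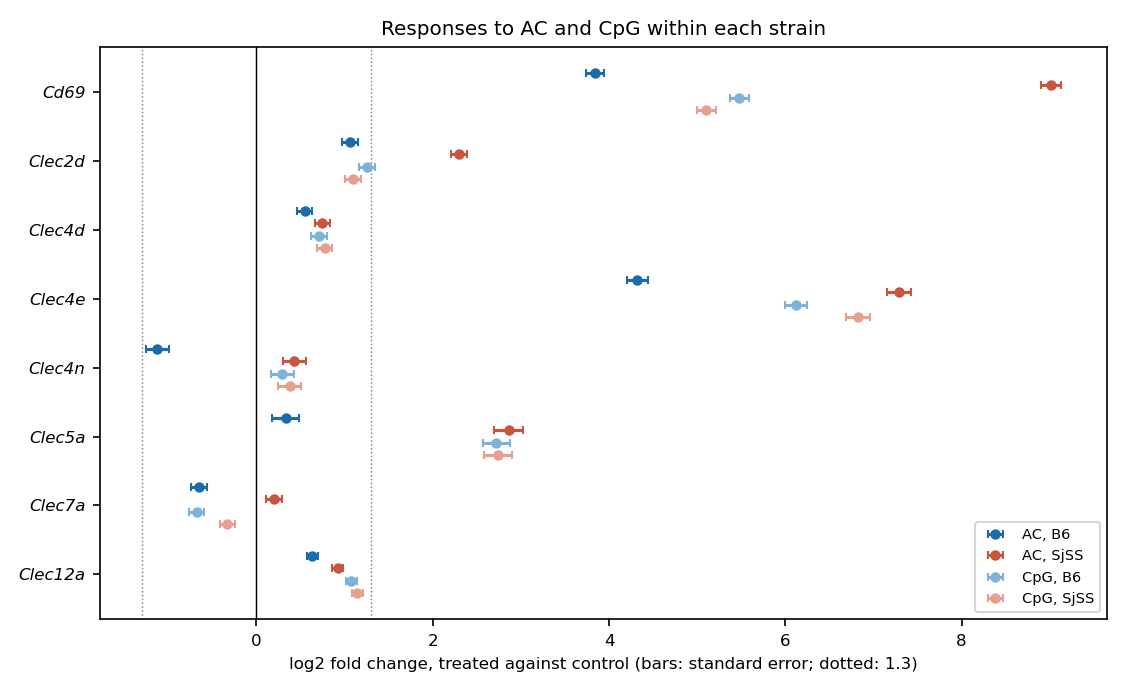
Log2 fold change of each gene from control to AC or CpG in B6 and SjSS BMDMs, with bars for the standard error and dotted lines at 1.3. *Cd69* runs from 3.84 (AC, B6) to 9.01 (AC, SjSS), and *Clec4n* and *Clec7a* are the members below 0 with ACs in B6.

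Without treatment 4 of the lectin genes were lower in SjSS, while *Cd69* differed by -0.08 (SE 0.13, adjusted p = 0.721). *Clec4e* was the 1 member of 8 called lower, beside 0.716% of all tested genes, and at the adjusted p alone *Clec4n*, *Clec5a* and *Clec7a* were lower too (4 of 8 beside 10.6%, with none higher beside 9.04%). The choice of *Clec4e*, *Clec4n* and *Clec5a* also used the control SjSS samples, so nothing is read from these counts. With CpG 0 of 8 were called by edgeR or DESeq2, beside 2.61% of genes in either direction. At an unadjusted p under 0.05 5 passed (32.1% of genes), and the same 5 were lower at an adjusted one (9.57% of genes, against 10.2% higher), namely *Clec4e*, *Clec4n*, *Clec5a*, *Clec7a* and *Cd69*. *Cd69* was lower in SjSS with CpG by 0.46 (SE 0.08, adjusted p = 0.00031).

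The fitted strain difference was below 0 for all members but *Clec2d* (0.14) in control samples, and for all 8 in CpG samples (*Clec2d* -0.03). *Clec2d*, *Clec4d* and *Clec12a* passed an adjusted p of 0.05 in neither, nor did *Cd69* in control samples. The value of *Clec4d* with CpG (-0.02) turned above 0 without CpG B6 replicate 2 or CpG SjSS replicate 3. With ACs the strain difference was above 0 for all 8. The share of all genes with such signs is not given, so nothing is read from the signs. *Clec4e*, *Clec4n* and *Clec5a* were higher in SjSS with ACs by 1.42, 0.79 and 1.46. *Cd69* was higher by 5.09 and *Clec2d* by 1.37, and *Clec4d*, *Clec7a* and *Clec12a* differed by 0.12 to 0.18. Over 1.3 were *Cd69*, *Clec5a*, *Clec4e* and *Clec2d*, 4 of 8 beside 6.70% of genes. The AC response minus that of B6 was 5.17 for *Cd69*, 2.97 for *Clec4e*, 2.53 for *Clec5a* and 1.56 for *Clec4n*, the 4 of 8 over 1.3 beside 6.33% of genes. All of these share the AC SjSS samples known when the members were chosen, and nothing is read from these counts. For the CpG response, 0 of 8 interactions were called by edgeR or DESeq2, beside 0.614% of all genes. Of these interactions 3 had an unadjusted p under 0.05 (20.1% of genes), and *Clec4e* an adjusted one (3.23% of genes higher, 2.62% lower). With the replicate number as a block *Clec7a* passed too (0.35, adjusted p = 0.0355).

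**Figure D3:**
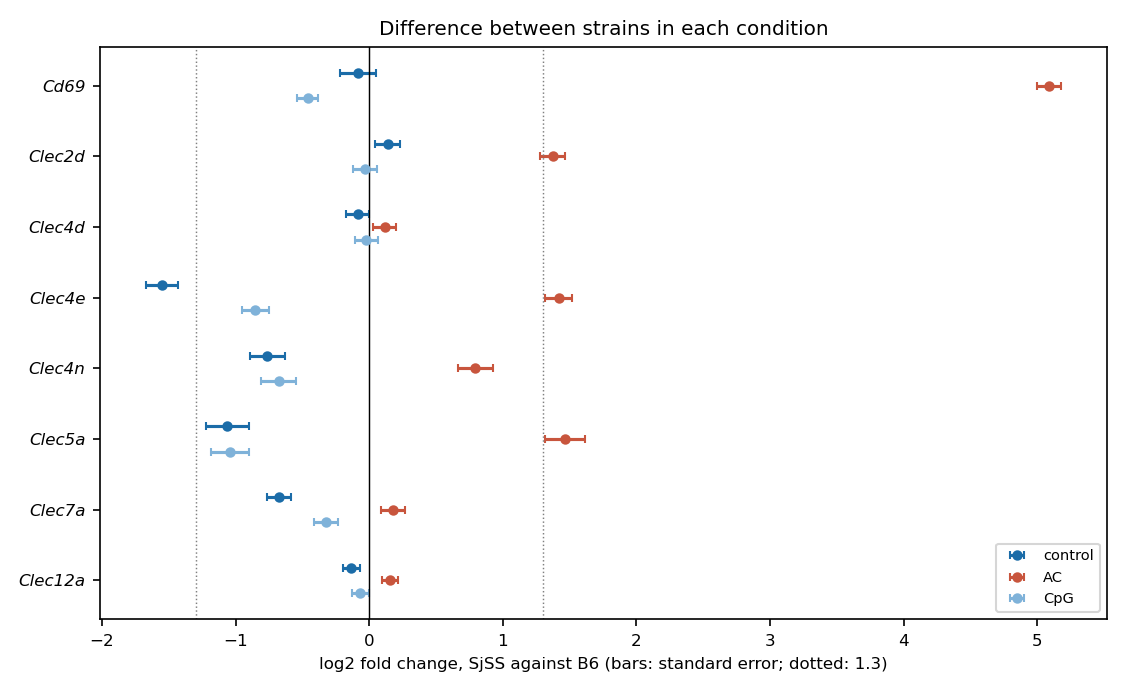
Log2 fold change of SjSS against B6 BMDMs for each gene in control, AC and CpG samples, with bars for the standard error and dotted lines at 1.3. All members but *Clec2d* lie below 0 in control samples and all 8 with CpG, *Clec2d* and *Clec4d* there only at -0.03 and -0.02. All 8 lie above 0 with ACs, where *Cd69* reaches 5.09.

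ACs and CpG were given for different times, so their levels are compared only as treatments. In B6 ACs left lower levels than CpG of *Clec5a* (by 2.39, SE 0.15, adjusted p = 2.36e-10), *Clec4e* (by 1.80, SE 0.10, adjusted p = 4.69e-11), *Cd69* and *Clec4n* (by 1.42, SE 0.13, adjusted p = 4.42e-08). These were 4 of 8 members, beside 3.47% of genes (5 lower without the fold threshold, beside 22.4% of genes lower and 23.7% higher). *Clec12a* was lower by 0.44 (SE 0.06, adjusted p = 7.09e-06). *Clec2d* differed by -0.20 (SE 0.09, adjusted p = 0.0843), and without CpG B6 replicate 1 by -0.28 (adjusted p = 0.0165). In SjSS *Cd69* alone was over 1.3, 1 of 8 beside 5.88% of genes, a comparison that also holds the AC SjSS samples.

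The receptor partners and Syk-Card9 genes numbered 24, all tested. With CpG 7 were called higher in B6, beside 5.86% of all tested genes, among them *Malt1* (2.10, SE 0.10), *Pik3cg* (1.66, SE 0.07) and *Lyn* (1.53, SE 0.08). In SjSS 4 were called higher with CpG, beside 4.81% of genes, with 0 lower in either strain. With ACs in B6 *Src*, *Fgr* and *Malt1* were called higher (1.52, 1.40 and 1.33), beside 2.43% of genes, and 0 lower, beside 2.04%. *Syk* itself rose with CpG by 1.49 in B6 (adjusted p = 9.49e-13) and by 1.33 in SjSS (adjusted p = 6.21e-12). The adaptor *Fcer1g* rose by 0.78 with CpG in B6 (adjusted p = 1.33e-10), and *Tyrobp*, which encodes DAP12, changed by -0.07 (adjusted p = 0.382). *Card9* fell by 0.57 with ACs in B6 (adjusted p = 4.09e-06). The medians of the list were 0.64 with CpG and 0.11 with ACs in B6, against -0.04 and 0.00 over all genes.

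**Figure D4:**
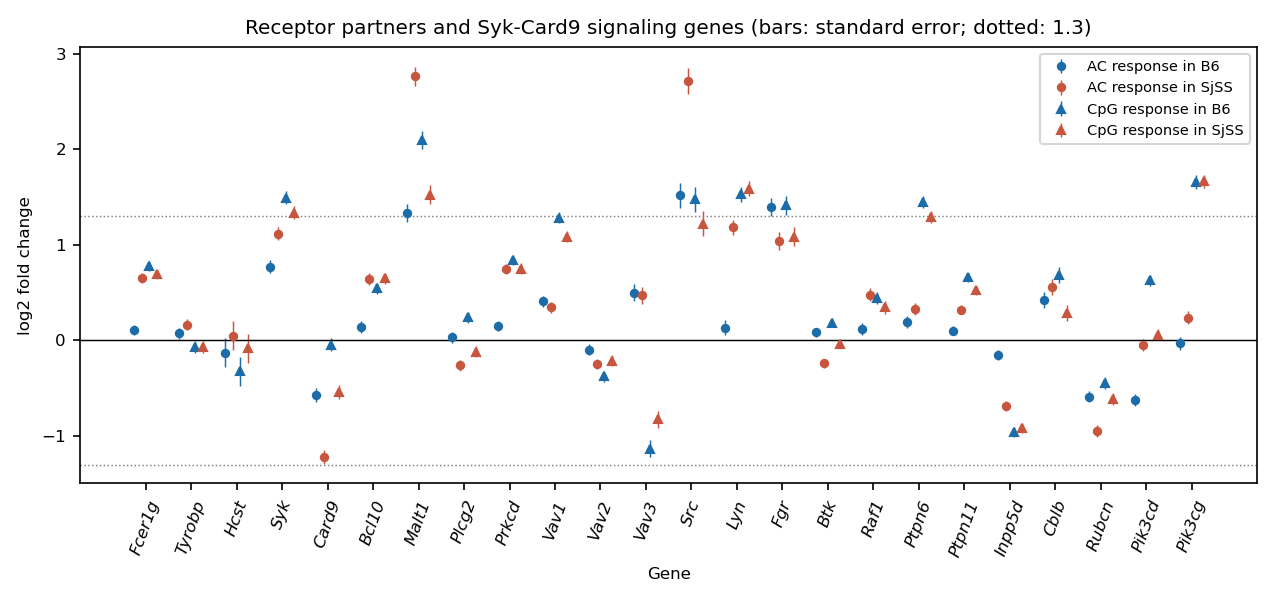
Log2 fold changes of 24 receptor partners and Syk-Card9 signaling genes with AC (circles) and CpG (triangles) in B6 (blue) and SjSS (red), with bars for the standard error and dotted lines at 1.3. *Malt1* and *Src* reach past 1.3 in AC SjSS samples, and *Card9* is at -1.22 there.

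Among 49 other C-type lectin and lectin-like genes, 37 were in the table and 25 were tested. With ACs in B6 *Olr1*, the oxidised LDL receptor LOX-1, was called higher (5.04, SE 0.16, adjusted p = 1.24e-13) and *Clec1a* and *Mrc1* lower. Of all tested genes 2.43% were called higher there and 2.04% lower. With CpG 5 were called higher in B6 (5.86% of genes), led by *Olr1* (3.18), *Cd72* (1.84) and *Clec4a1* (1.66). Another 3 were lower, led by *Clec1a* (-2.40) and *Clec10a* (-2.09). In SjSS 8 were called higher with CpG (4.81% of genes) and 1 lower. The share of all genes called lower with CpG is not given here. The median of the 25 with CpG was 0.01 in B6 and 0.20 in SjSS, against -0.04 and -0.01 over all tested genes. *Mrc1*, the macrophage mannose receptor, went from 549.5 to 205.5 CPM with ACs in B6 (log2 fold change -1.42, adjusted p = 3.87e-10). Of 5 genes tied to CD69, *S1pr1* fell with CpG by 2.48 in B6 (SE 0.19, adjusted p = 1.14e-09) and by 1.45 in SjSS (SE 0.18, adjusted p = 1.1e-06). *Klf2*, which drives *S1pr1*, rose with ACs in B6 by 1.65 (adjusted p = 9.69e-07), the 1 of 5 called higher there, beside 2.43% of genes. Mean *S1pr1* was lower there, at 101 CPM with ACs against 134 CPM in control. With CpG in SjSS *Slc7a5* was the 1 of 5 called higher, beside 4.81% of genes.

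The chromosome 6 interval of the 7 clustered members held 84 other tested genes. With CpG in B6, 6 of the 84 were called higher (5.86% of all tested genes) and 6 lower, beside 2 of 7 members. They were led by *Gm15987* (4.24, SE 0.28), *BC035044* (3.29, SE 0.27) and *Gm43634* (-2.41, SE 0.97). With ACs in B6, 2 were called higher (2.43% of genes) and 1 lower (2.04%), beside 2 of 7 members. In AC SjSS samples 4 were higher and 9 lower, among them *Lpar5* (-2.87), *2010008C14Rik* (-2.84) and *Lag3* (2.63). The shares of all genes called lower with CpG, or called with ACs in SjSS, are not given here. Most of the 84 were not called in any of these comparisons.

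**Figure D5:**
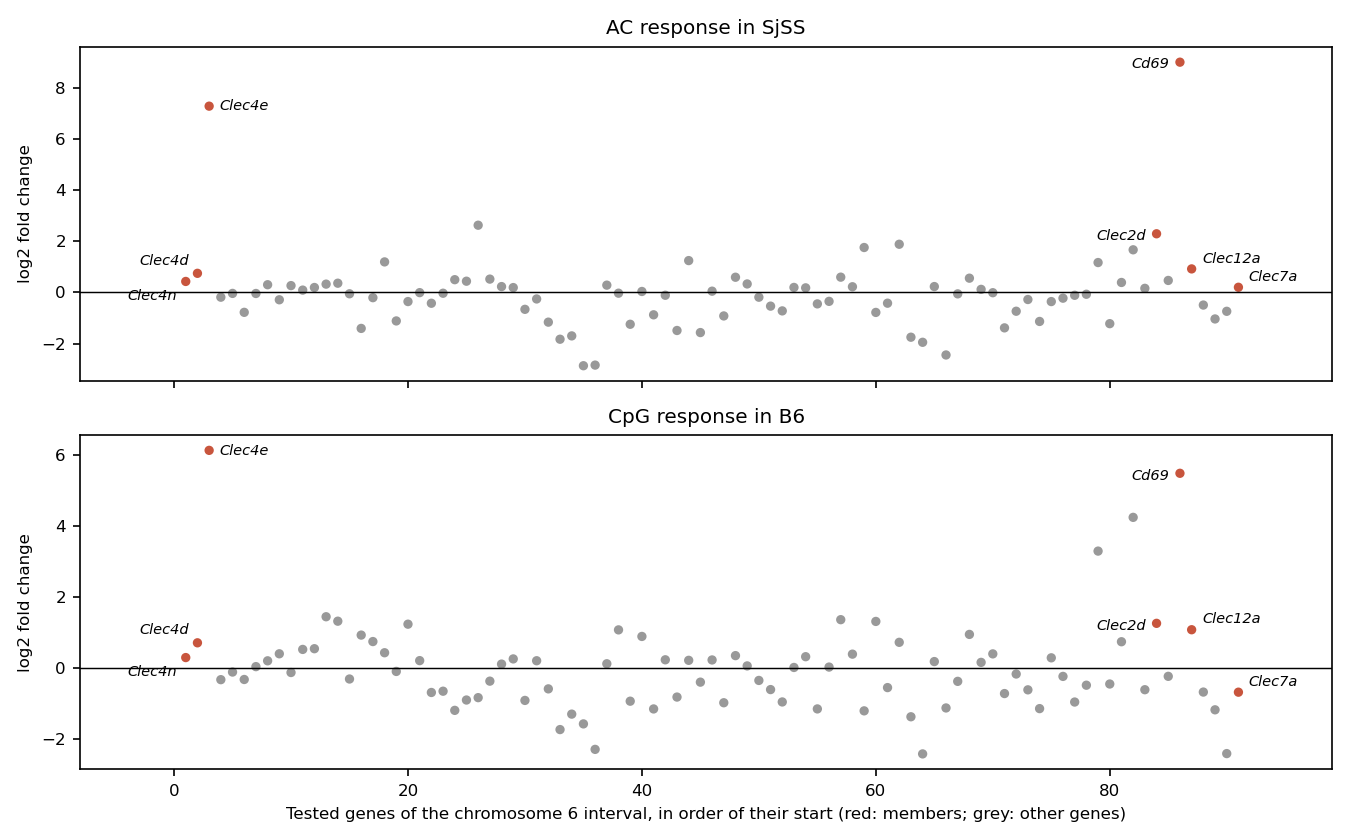
Log2 fold change of the 91 tested genes of the chromosome 6 interval in order of their start, for the AC response in SjSS and the CpG response in B6 (red: the 7 members in it, grey: 84 others). *Clec4e* and *Cd69* stand above their neighbours in both panels, at 7.29 and 9.01 with ACs and at 6.13 and 5.48 with CpG. The AC panel holds samples known when the members were chosen, so nothing is read from their place in it.

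Promoter sequence was shown for members called in a tested comparison, or past the fold threshold alone in a comparison with AC SjSS samples. These carry the large changes. *Clec2d* was called in no tested comparison and entered only by its fold change in AC SjSS samples. Those samples were known when the members were chosen, so nothing is read from the place of *Clec2d* among the printed promoters. RefSeq promoters (GRCm38.p6, which has the coordinates of mm10) matched 6 of 8 members, with no entry for *Cd69* and *Clec4n*, and *Clec2d*, *Clec4e* and *Clec5a* remained. The 250 bases before the start site run 5′ to 3′ on the strand of the gene, and capitals mark every match, on either strand, to 4 motifs.
Clec2d (chr6:129180365-129180614, plus strand): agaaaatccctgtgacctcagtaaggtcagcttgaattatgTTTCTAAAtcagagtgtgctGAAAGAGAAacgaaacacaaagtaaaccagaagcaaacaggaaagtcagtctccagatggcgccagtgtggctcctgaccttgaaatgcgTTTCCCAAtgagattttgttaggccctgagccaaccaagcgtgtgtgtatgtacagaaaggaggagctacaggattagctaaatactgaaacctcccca
Clec4e (chr6:123289872-123290121, minus strand): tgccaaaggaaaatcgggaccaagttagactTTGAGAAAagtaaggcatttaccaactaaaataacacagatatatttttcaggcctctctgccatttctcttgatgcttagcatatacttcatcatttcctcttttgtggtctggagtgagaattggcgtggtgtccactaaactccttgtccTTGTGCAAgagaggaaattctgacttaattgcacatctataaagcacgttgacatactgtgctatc
Clec5a (chr6:40585806-40586055, minus strand): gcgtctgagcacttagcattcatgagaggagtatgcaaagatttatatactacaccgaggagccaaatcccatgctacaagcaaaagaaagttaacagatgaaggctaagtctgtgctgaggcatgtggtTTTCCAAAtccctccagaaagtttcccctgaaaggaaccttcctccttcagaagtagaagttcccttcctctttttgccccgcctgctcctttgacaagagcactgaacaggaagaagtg

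The motifs were ISRE (GAAANNGAA), C/EBP (TTNNGNAA), AP-1 (TGANTCA) and GAS (TTCNNNGAA), and they were written down after these promoters had been looked at. The ISRE was first searched in a form of 10 letters, held by 2.98% of promoters and by *Clec2d* alone among the members. The NF-kB consensus, also of 10 letters and held by 7.25% of promoters, had 0 matches in the 6 members, as had a looser form held by 45.8%. Of 32851 promoters 7.13% held the ISRE letters, 36.8% C/EBP, 6.75% AP-1 and 7.02% GAS. *Clec2d* held the one ISRE match among the members, 189 bases before its start, and 2 C/EBP matches. *Clec4e* held 2 C/EBP matches, at 219 and 66 bases, and *Clec5a* held 1, at 120 bases. Of members not printed, *Clec4d* held 3 C/EBP matches, *Clec12a* 2 and an AP-1 match, and *Clec7a* none. None of the 6 held the GAS letters in this window. No matches of different motifs overlapped in the printed sequences. For 2 members the RefSeq start site was not that of the deposited position. The *Clec12a* window (129349994 to 129350243) lay within the gene as deposited (129342691 to 129365303). The *Clec5a* window reached into the gene as deposited, which ends at 40585821.

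For each member the 3 tested genes most like it in pattern were found by the root mean square difference of log2 CPM (prior count 2), each gene centred on its mean over 18 samples. These values describe samples that share libraries and depth. Nearest to *Cd69* were *Gbp5* (0.55), *Ccl5* (0.61) and *Nos2* (0.75), and nearest to *Clec4e* were *Acod1* (0.47), *Cxcl3* (0.79) and *Cxcl1* (0.79). Mean *Gbp5* was 3.91, 45.5 and 91.4 CPM in control, AC and CpG B6 samples and 3.83, 1281 and 50.9 in SjSS. Mean *Acod1* was 42.1, 1174 and 2549 CPM in B6 and 20.9, 5312 and 1824 in SjSS. Nearest to *Clec2d* was *Jak2* (0.17), to *Clec4d* *Rnf149* (0.09), to *Clec4n* *Gstm2* (0.19), to *Clec5a* *Rnf24* (0.29), to *Clec7a* *Atg10* (0.15) and to *Clec12a* *Riok3* (0.08). *Cd69* and *Clec4e* were each other's nearest member, yet 1.37 apart and ranked 32 and 34, so no member was among the 3 nearest of another.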

How the data were processed

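RNA-seq of 18 BMDM samples, 3 in each of 6 groups, was analysed from the deposited table. The authors aligned reads to mm10 with STAR in Partek Flow and quantified them with its E/M tool. The deposited table holds estimated counts without normalization, and 41.1% of its values were not whole (tolerance 1e-06), so they were rounded first. E/M divides reads between similar genes by estimation, and strandedness was not given in the sources used here.

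The tests used edgeR 4.0.16 (R 4.3.3). Genes were kept by filterByExpr, which left 15789 of 20615, and libraries were scaled by TMM. A quasi-likelihood model with a mean for each group was fitted to all 18 samples. Benjamini-Hochberg adjustment ran over all tested genes in each of 11 comparisons. The thresholds for a call (0.05 on the adjusted p, 1.3 on the log2 scale) follow the study's methods. The legend of its volcano plots gives 1.3 as a fold change instead, which is looser. *Clec4n*, at a fold of 1.35 in AC SjSS samples, is over 1.3 only by the legend. In the 4 comparisons with AC SjSS samples members were counted by fold change alone, a rule set after their values were seen. SE values are the fold change on the log2 scale over the root of F. Figures were drawn with matplotlib 3.10.9. Exon lengths came from GENCODE M21. The scripts were tested on simulated counts.

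The members and gene lists were chosen with earlier results of these data known. A signaling gene first listed is not reported here. The rule for named genes covered the members, genes of the lists with the largest changes among called genes, the 3 most changed called genes of the chromosome 6 interval and the 3 genes nearest to each member; *Syk*, *Fcer1g*, *Tyrobp* and *Card9* were named for their place in the pathway after their values were seen. Alternatives were DESeq2 1.42.0, its size factors within edgeR, no filter or 10 counts in 3 samples, no fold threshold or a log2 fold change over 2, a fit of the compared groups alone, a block for the replicate number, leaving out each sample and a prior count of 0.5. Same-numbered control and CpG samples of B6 deviated together from their group means (correlations of 0.26, 0.264 and 0.137 over genes), so the numbers were taken to pair them. This pairing came from the data and no label states it. The p values in the Results come from the fit without a block, so without this pairing, unless a block is named.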

Additional observations from a re-analysis of the deposited data

Results flagged for a closer look

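The CpG response of *Clec4e* was larger in SjSS than in B6 BMDMs by 0.70 on the log2 scale (0.6995, SE 0.16, adjusted p = 0.0115 by edgeR), and it was listed because the interaction itself passed the threshold. Within each strain all CpG samples lay above all control samples. Over the alternatives the difference was 0.529 to 0.831 and the adjusted p 0.00063 to 0.035, with the smallest difference when control SjSS replicate 3 was left out. Control levels also differed, 15.7 CPM in B6 and 5.45 CPM in SjSS. The control SjSS samples had also served in the choice of *Clec4e*, so the p values carry that limit.

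The AC response of *Clec4n* pointed in opposite directions in the strains, with a difference of 1.56 (1.5559). With ACs all B6 samples lay below all their controls, and all SjSS samples lay above theirs. Summed granulocyte markers, mostly *Csf3r*, moved likewise (83.4 to 99.6 against 113 to 129 CPM in B6, 112 to 118 against 89.0 to 102.5 CPM in SjSS). The means of the rarer *S100a9* and *Prtn3* went with the sum. *S100a9* in SjSS was near the floor, with 2 counts over the control group and 12 over the AC group, where its median was 0. Mean *S100a8* was lower with ACs in both strains (3.22 against 3.60 CPM in B6, 2.21 against 2.78 CPM in SjSS). So was mean *Cebpe* (0.334 against 0.445 CPM in B6, 0.451 against 0.464 CPM in SjSS). The part of these markers was not tested. The difference was not tested for the members, because it contains the AC SjSS samples that were known when the members were chosen.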

How the results depend on the processing

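Of 1152 alternative fold changes of members, 21 had the other sign, all of values under 0.1 in size, none past an adjusted p of 0.05 where tested, among them *Clec2d* and *Clec4d* between strains with CpG. In the 7 tested comparisons 700 stayed on their side of an adjusted p of 0.05, 15 newly passed it and 5 no longer passed it. With no fold threshold the members called were 7 for the AC response in B6, 7 for the CpG response in B6, 8 in SjSS, 4 between untreated strains, 5 between strains with CpG and 1 for the strain by CpG interaction. This alternative gives no value for the 4 comparisons with AC SjSS samples, where members were counted by fold change alone. With a log2 fold change over 2 they were 0 between untreated strains, 1 between strains with ACs and 1 for AC against CpG in B6. Leaving out a sample gave 3 to 4 for the CpG response in B6, where *Clec2d* passed 1.3 without control B6 replicate 2 (1.36) or CpG B6 replicate 1 (1.35), and 4 to 5 for the strain by AC interaction, where it passed without AC SjSS replicate 3 (1.31). The other 9 counts stayed as they were.

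With the replicate number as a block, the counts of called members were those without it in all 11 comparisons. The block was set within each strain, except for the strain differences. There it joined same numbers across strains, for which the data gave no sign of pairing. Besides *Clec4n*, the replicate block moved the adjusted p of *Clec5a* with ACs in B6 to 0.0149, of *Clec7a* for the CpG interaction to 0.0355 and of *Clec2d* and *Clec4d* for AC against CpG in B6 to 0.0408 and 0.0317. The interaction rests in part on the control and CpG samples of B6, which were taken as paired. Same-numbered samples correlated by 0.193, 0.044 and 0.02 for control and AC in B6 and by 0.109, 0.044 and 0.031 for AC and CpG in B6, so not every pair was over 0.1 and the numbers were not taken to pair them. In SjSS the same-numbered pairs ran from 0.027 to 0.142 and between strains from -0.094 to 0.06. All 6 samples correlated best with their own number in each comparison within a strain other than control and AC in B6 (2 of 6), a hint from the data and not from the design. The cause was not tested where *Clec4n* with CpG in B6 passed with size factors (adjusted p = 0.0398), DESeq2 (0.0287), the compared groups alone (0.0131), and without control replicate 1 (0.0298) or CpG replicate 3 (0.0471). *Clec5a* with ACs in B6 passed with the compared groups alone (0.0489), and *Clec2d* for AC against CpG in B6 with size factors (0.0421) or DESeq2 (0.0377). DESeq2's size factors moved the median fold change of all genes by under 0.03 in each comparison. A prior count of 0.5 exchanged the third gene nearest to *Cd69* and left the other lists as they were. Depth limited the 58 to 126 control counts of *Cd69* most.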
